A study of Mus musculus with 4 samples.

Results

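The genes of macrophages and dendritic cells were followed in colon mucosa of mice that differ in Vhl and Apc. The set was chosen by name: 37 genes that mark these cells or act in them. A probe set annotated to the gene alone was found for 36 of them, among 18194 genes with such a probe set, and Clec9a had none. Where a gene had several probe sets, the brightest on average was read. Values are on the RMA log2 scale, where a difference of 1 is 2-fold, and a gene entered the counts when it reached 6 in at least 1 array, here called the floor. This held for 31 of the 36 genes and for 11871 genes of the array.

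Mucosa was scraped from the colon of 129S6/SvEv mice aged 5 weeks, and 4 genotypes were measured with 1 Affymetrix array each. VhlF/F mice carry floxed Vhl, and VhlΔIE mice lack Vhl in an intestine-specific way. VhlF/F/Apcmin/+ and VhlΔIE/Apcmin/+ mice carry the Min allele of Apc in addition, a model of intestinal tumors. By the labels, no group has an unmodified Vhl gene: the controls carry the floxed alleles. The design text names 4, 3, 3 and 5 mice for VhlF/F, VhlΔIE, VhlF/F/Apcmin/+ and VhlΔIE/Apcmin/+. Whether their RNA was pooled on the arrays, and which promoter drives the Cre recombinase, is not given in the sources used here. With 1 array a genotype no difference has a replicate check, and no p-value is given. The arrays are called Vhl floxed, Vhl deleted, Vhl floxed Apc Min and Vhl deleted Apc Min, and values listed without array names follow this order.

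Macrophages and dendritic cells form a dense network under the colon epithelium. Colonic macrophages are replenished from blood monocytes, depend on the receptor Csf1r, clear microbes and dying cells, and help keep the epithelium intact. Dendritic cells depend on the receptor Flt3 and carry antigen to lymph nodes, where they prime T cells. The Vhl protein recruits hypoxia-inducible factors to a ubiquitin ligase, which leads to their breakdown when oxygen is present, and the comparison asks what its loss does in the colon, with and without mutant Apc.

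Some features of the arrays bear on every result below. Vhl read 1.36 and 1.61 lower in the Vhl deleted arrays than in their floxed counterparts, without and with the Min allele. Levels of Xist, which is made from an inactive X chromosome, were 11.37 and 11.83 with floxed and 5.58 and 6.25 with deleted Vhl. Eif2s3y, a gene of the Y chromosome, read 8.58, 8.78, 7.27 and 8.80, so the Vhl floxed array was high for both genes. Xist thus split the arrays by Vhl status, while Eif2s3y did not. A sex difference between the mice used cannot be told apart from Vhl deletion here. The part of sex in the member differences was not tested. Dbp, an output gene of the circadian clock, read 9.37, 5.86, 10.74 and 8.05, lower in each Vhl deleted array than in its floxed counterpart, and the part of sampling time was not tested. Hepatocyte transcripts were high in the Vhl floxed array: the summed linear signal of 10 hepatocyte markers was 9975 there and 2446 to 4099 in the other arrays. Most of the sum in those other arrays came from Ttr, which read 11.66, 11.01, 11.89 and 10.99. In each of them 6 or 7 of the 10 markers lay under the floor. The 4 markers of Kupffer cells, the macrophages of the liver, lay under the floor in every array, with summed signals of 84.57 to 100.7. Epithelial markers gave summed signals of 90680 to 96490. In bulk tissue, more cells of a type and more RNA per cell cannot be told apart.

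Nearly all macrophage and dendritic cell genes were higher in the Vhl deleted arrays. For 28 of the 31 genes that reached the floor, both deleted arrays read above both floxed arrays, against 27.7% of all genes tested. Ctss was the one gene with both deleted arrays below both floxed arrays, an order seen in 33.4% of all genes. Cd14 and Arg1 had overlapping arrays. Without the Min allele 29 of 31 genes were higher in the deleted array, with a median difference of 0.70, against 46.6% of all genes and a median of -0.02. With the Min allele 29 of 31 were again higher, with a median of 0.45, against 46.5% of all genes and a median of -0.02.

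The differences were moderate in size. Without the Min allele 22 members were at least 1.5-fold higher in the deleted array, against 6.22% of all genes, and 6 were at least 2-fold higher, against 2.27%. These 6 were Itgam, Clec10a, S100a8, C1qb, Cd163 and Mpeg1. Fcgr3 and Aif1 lay just under this threshold, at 1.99-fold and 1.98-fold. With the Min allele 8 members were at least 1.5-fold higher, against 7.19% of all genes, and 3 at least 2-fold higher, against 2.82%: Itgam, S100a8 and Arg1. At least 2-fold lower was 1 member without the Min allele, Arg1, against 1.6% of all genes, and 0 with it, against 1.52%. At the 1.5-fold threshold Arg1 was again the only lower member without the Min allele, against 5.08% of all genes, and 0 members were lower with it, against 5.15%. In both backgrounds 6 members were at least 1.5-fold higher, against 4.42% of all genes: Mpeg1, Fcer1g, Itgam, Itgae, Clec10a and S100a8. Itgam and S100a8 were at least 2-fold higher in both, against 1.58%, but their floxed values lay under the floor. With the Min allele both values of Itgam and of Arg1 lay under it.

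Some members passed the floor through the deleted arrays alone, which favours a difference. Among the 24 members at or above the floor in all 4 arrays, both deleted arrays lay above both floxed arrays in 22, against 26.9% of 10958 such genes. Their median difference was 0.69 without and 0.40 with the Min allele. In this stricter group 17 members were at least 1.5-fold higher without the Min allele, against 5.12% of such genes, and 3 with it, against 5.89%. At least 2-fold higher were 3 members without the Min allele, against 190 of the 10958 genes, and 0 with it, against 241. The lowest passing values belonged to Itgam, which reached 6.28 at most, and the highest failing ones to the probe set used for Fcgr1, which reached 5.77.

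**Figure D1:**
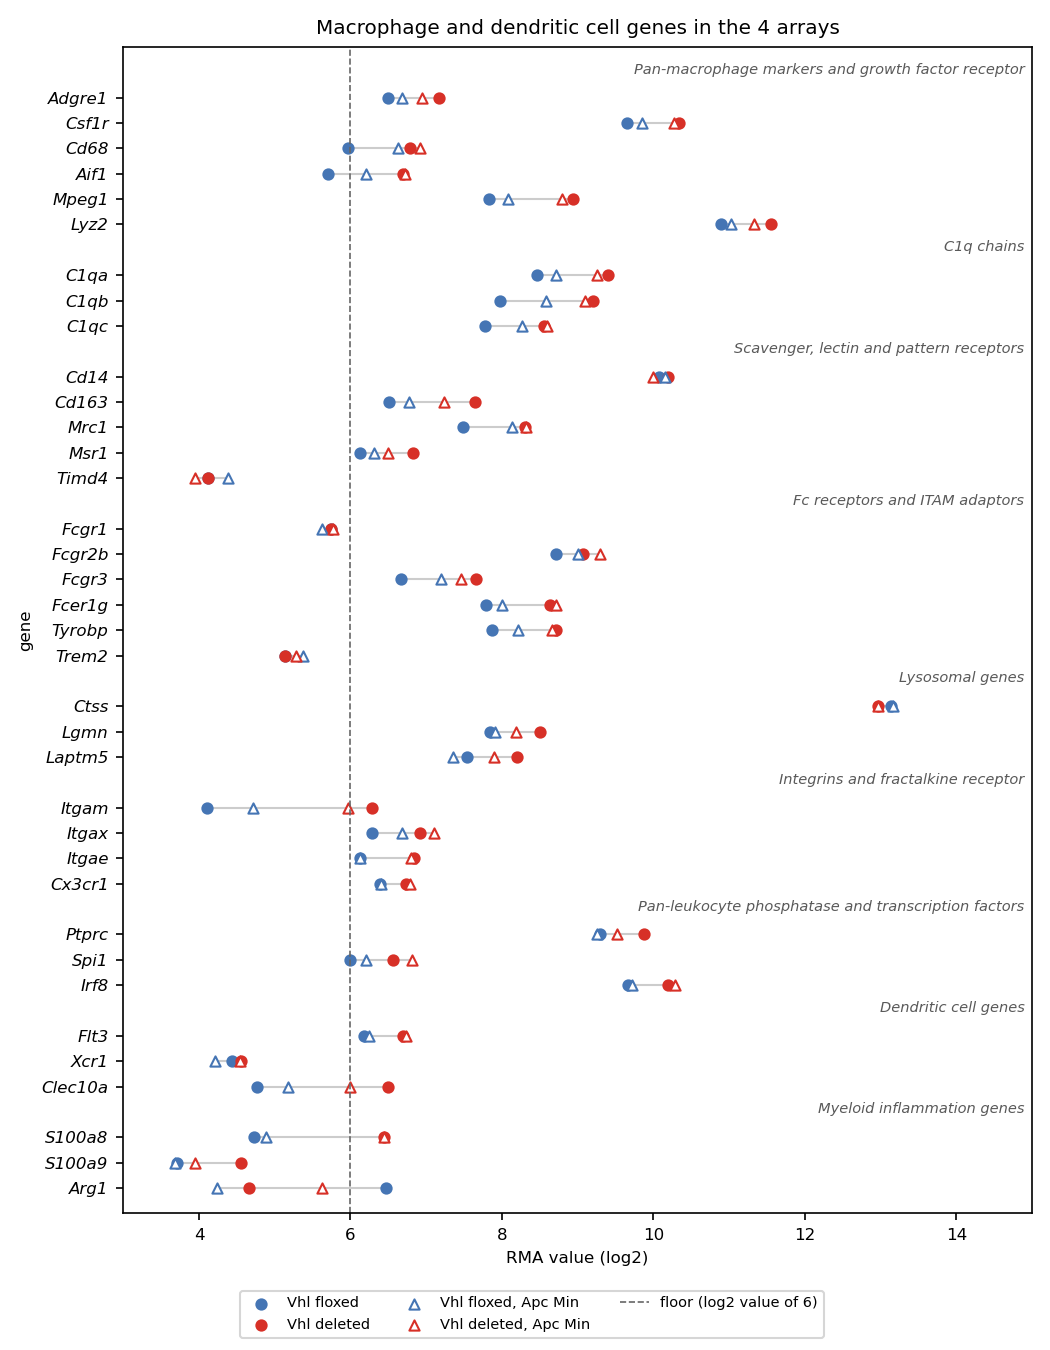
RMA log2 value (x axis) of each of the 36 measured genes (rows, grouped by role) in the 4 arrays. Blue marks are floxed arrays and red marks deleted arrays, filled circles without and open triangles with the Min allele, and the dashed line is the floor at 6. In 28 of the 31 genes that reach the floor both red marks lie to the right of both blue marks, while Arg1 is highest in the Vhl floxed array.

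**Figure D2:**
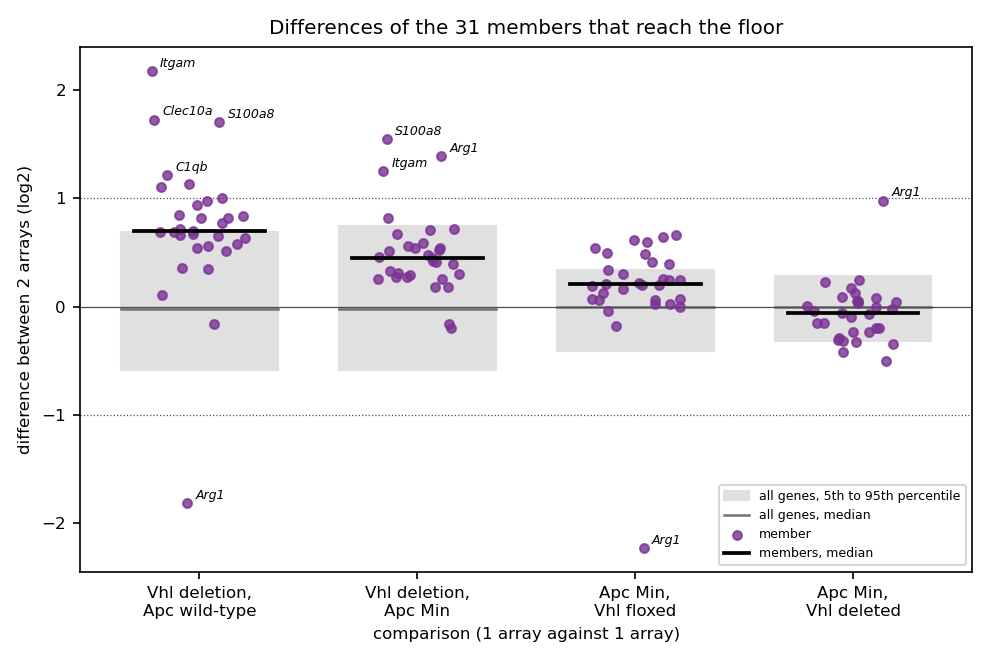
Difference between 2 arrays on the log2 scale (y axis) for the 31 genes that reach the floor, in each of 4 comparisons (x axis). Points are genes, black bars their medians of 0.70, 0.45, 0.21 and -0.06, grey boxes span the 5th to 95th percentile of all 11871 genes, and dotted lines mark 2-fold.

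The 250 bases before the start site are shown for members at least 2-fold higher without the Min allele, as examples of promoters of genes that were higher together. Sequences are from the RefSeq promoter table on GRCm38.p6, written 5′ to 3′ along the gene, which held 27 of the 37 genes and not Clec10a. Capitals mark GAGGAA, a core recognised by PU.1, the myeloid transcription factor encoded by Spi1, on either strand, so that TTCCTC is the same motif on the opposite strand.
Itgam, chr7:128062390-128062639, plus strand: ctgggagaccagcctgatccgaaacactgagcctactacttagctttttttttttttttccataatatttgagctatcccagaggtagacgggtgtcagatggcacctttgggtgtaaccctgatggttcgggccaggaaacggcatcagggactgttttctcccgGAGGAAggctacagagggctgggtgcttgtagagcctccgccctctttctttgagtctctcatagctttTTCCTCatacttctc
S100a8, chr3:90668821-90669070, plus strand: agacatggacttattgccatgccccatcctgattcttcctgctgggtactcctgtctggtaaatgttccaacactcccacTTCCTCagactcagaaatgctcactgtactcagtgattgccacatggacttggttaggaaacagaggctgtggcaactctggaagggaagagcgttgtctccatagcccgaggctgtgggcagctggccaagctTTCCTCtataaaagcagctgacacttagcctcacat
C1qb, chr4:136886201-136886450, minus strand: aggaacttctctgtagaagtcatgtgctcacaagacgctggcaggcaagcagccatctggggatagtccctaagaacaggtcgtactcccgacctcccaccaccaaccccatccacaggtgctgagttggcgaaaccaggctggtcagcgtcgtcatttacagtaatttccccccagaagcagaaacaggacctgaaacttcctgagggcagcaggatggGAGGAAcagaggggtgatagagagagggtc
Cd163, chr6:124304401-124304650, plus strand: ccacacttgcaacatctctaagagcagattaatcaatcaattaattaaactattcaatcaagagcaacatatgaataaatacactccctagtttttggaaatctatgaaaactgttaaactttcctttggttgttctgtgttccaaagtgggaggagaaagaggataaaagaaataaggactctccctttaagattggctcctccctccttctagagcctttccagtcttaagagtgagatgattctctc
Mpeg1, chr19:12460520-12460769, plus strand: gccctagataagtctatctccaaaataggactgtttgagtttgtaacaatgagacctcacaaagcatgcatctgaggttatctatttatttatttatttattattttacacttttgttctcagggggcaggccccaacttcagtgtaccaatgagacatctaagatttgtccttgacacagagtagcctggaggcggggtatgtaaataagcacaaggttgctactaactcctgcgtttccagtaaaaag

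Itgam and S100a8 hold 2 copies of GAGGAA each in these windows and C1qb holds 1, while Cd163 and Mpeg1 hold none. Over all members with an entry, 13 of 27 had the motif in a 250-base window, or 48.1%, against 25.9% of 27025 genes. The hypoxia response core ACGTG, searched on both strands, was in 3 of 27 members, or 11.1%, against 18.5% of all genes. Among genes that reached the floor, GAGGAA was in 11 of 21 members, or 52.4%, against 25.7% of 9565 genes. ACGTG was in 2 of these 21 members, or 9.52%, against 24.9%. The letters of both motifs can share a base, but no member held both in its window. Mpeg1 and Fcer1g, which hold no GAGGAA, differed by 1.11 and 0.84 without the Min allele. Members with and without the motif were not compared. A match describes letters and shows no binding.

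The pan-macrophage genes were higher together. Csf1r, the receptor for the growth factors CSF1 and IL-34, read 9.65 in the Vhl floxed, 10.34 in the Vhl deleted, 9.85 in the Vhl floxed Apc Min and 10.27 in the Vhl deleted Apc Min array, differences of 0.69 and 0.42. Its other probe sets gave 0.78 and 0.40, and 0.50 and 0.46. Adgre1, the F4/80 antigen by which mouse macrophages are stained, read 6.49, 7.17, 6.68 and 6.95, differences of 0.69 and 0.26. In both genes the deleted arrays lay above the floxed ones, and the Vhl floxed array was the lowest.

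Mpeg1, a pore-forming protein of phagosomes, read 7.83, 8.94, 8.08 and 8.79, which is 2.16-fold higher with Vhl deletion without the Min allele and 1.64-fold higher with it. Cd68, a lysosomal glycoprotein, read 5.97, 6.79, 6.63 and 6.92. Aif1, the actin-binding protein known as IBA1, read 5.70, 6.69, 6.21 and 6.72. For Cd68 and Aif1 the Vhl floxed array stood lowest and the Vhl floxed Apc Min array lay between it and the deleted arrays. Lyz2, the lysozyme of myeloid cells, read 10.89, 11.56, 11.02 and 11.33. Lyz1, the near-identical lysozyme of Paneth cells, read 11.88, 12.24, 11.67 and 11.94, and the probes may not separate the pair. All 6 genes of this group were higher in both deleted arrays, with medians of 0.76 and 0.36.

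The C1q chains were all higher with Vhl deletion. C1qa, C1qb and C1qc encode the 3 chains of the complement component that binds immune complexes and dying cells, and resident tissue macrophages are a main source of them. C1qb read 7.98, 9.20, 8.58 and 9.10, so the Vhl deleted array was 2.33-fold above the Vhl floxed array, and the difference was 1.43-fold with the Min allele. Its other 2 probe sets above the floor stayed under 2-fold, one with differences of 0.83 and 0.27 and the other with 0.01 and 0.09. C1qa read 8.46, 9.40, 8.71 and 9.25. C1qc read 7.78, 8.55, 8.27 and 8.60. On the probe sets used, the 3 chains kept one order: the Vhl floxed array lowest, the Vhl floxed Apc Min array next, and the deleted arrays highest. The C1qb probe set with the smallest differences read 7.04, 7.06, 6.93 and 7.02 and did not keep it.

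Scavenger and pattern receptors were less uniform. Cd163, the receptor that takes up haemoglobin bound to haptoglobin, read 6.51, 7.64, 6.77 and 7.23, differences of 1.13 and 0.45. Mrc1, the mannose receptor CD206, read 7.49, 8.31, 8.13 and 8.32, differences of 0.82 and 0.18. Msr1, a class A scavenger receptor, read 6.12, 6.82, 6.31 and 6.49. In these 3 genes the difference was at least 0.70 without and at most 0.45 with the Min allele, and the Vhl floxed Apc Min array was above the Vhl floxed array. Another Msr1 probe set above the floor differed by 0.59 and 0.41, closer to each other. Cd14, the co-receptor for bacterial lipopolysaccharide, read 10.08, 10.20, 10.16 and 10.00, with the arrays of both Vhl states overlapping. Timd4, a receptor for phosphatidylserine on long-lived resident macrophages, read 3.95 to 4.39, under the floor in every array.

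Fc receptors and their signalling adaptors were higher where they were measured. Tyrobp, the adaptor DAP12, read 7.87, 8.72, 8.21 and 8.66, differences of 0.85 and 0.46. Fcer1g, the gamma chain shared by activating Fc receptors, read 7.79, 8.63, 8.0 and 8.72, and its differences of 0.84 and 0.72 were close to each other. Fcgr3, an activating receptor for IgG, read 6.67, 7.66, 7.20 and 7.46, differences of 1.00 and 0.26. The adaptors thus lay higher in both deleted arrays, and so did the receptor.

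Fcgr2b, the inhibitory IgG receptor, depended on the probe set. The one used here read 8.72, 9.07, 9.01 and 9.30, differences of 0.35 and 0.29. Its 3 other probe sets above the floor gave differences of 0.87 to 1.22 without the Min allele and 0.51 to 0.69 with it. Fcgr2b and Fcgr3 are alike in sequence, so these probes may not tell them apart. Fcgr1, the high-affinity IgG receptor, read 5.63 to 5.77, and Trem2, a lipid receptor that signals through Tyrobp, 5.14 to 5.38, so neither is counted. The other Fcgr1 probe set, dimmer on average, read 4.84, 5.60, 5.30 and 6.08. It passed the floor in the Vhl deleted Apc Min array alone and differed by 0.76 and 0.78, so Fcgr1 is left out of the counts by the choice of probe set.

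Among lysosomal genes, Ctss stood apart from the rest. It encodes cathepsin S, which trims the invariant chain of MHC class II, and read 13.14, 12.97, 13.16 and 12.96, differences of -0.16 and -0.20. Lgmn, the asparaginyl endopeptidase legumain, read 7.84, 8.50, 7.91 and 8.18. Laptm5, a lysosomal membrane protein of blood cells, read 7.54, 8.20, 7.36 and 7.90, and its other 3 probe sets above the floor differed by 0.27 to 0.34 and by 0.04 to 0.37. Lgmn and Laptm5 were higher in both deleted arrays.

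Itgam showed the largest difference of all members without the Min allele. It encodes CD11b, the integrin of monocytes, macrophages, neutrophils and some dendritic cells, and read 4.10, 6.28, 4.72 and 5.97. The differences were 2.18 and 1.25, or 4.54-fold and 2.37-fold. Only the Vhl deleted array passed the floor, so the floxed values are at background and the fold is not well fixed. When values under 6 were raised to 6, Itgam differed by 0.28 and 0.00.

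Itgax, the CD11c integrin of dendritic cells and gut macrophages, read 6.29, 6.92, 6.68 and 7.10. Cx3cr1, the fractalkine receptor that marks mature gut macrophages, read 6.39, 6.74, 6.41 and 6.79, so its differences of 0.36 and 0.39 were among the smaller ones and alike in both backgrounds. Itgae, the CD103 integrin of intestinal dendritic cells and of T cells inside the epithelium, read 6.12, 6.84, 6.12 and 6.80, differences of 0.72 and 0.67. Its other probe set above the floor differed by 0.53 and 0.30, under 1.5-fold in both backgrounds. All of these were higher in both deleted arrays. Of 13 T and NK cell markers with a probe set 5 reached the floor, with medians of 0.13 and 0.13, and Cd3e and Cd3d differed by 0.05 and 0.48 without and by -0.31 and 0.02 with the Min allele. The summed signal of these 13 markers was 919.1, 1032, 999.8 and 1076. Zap70, the brightest of them, read 8.68, 8.69, 8.79 and 8.92, and 8 of the 13 lay under the floor in every array. The part of T and NK cells in the Itgae difference was not tested.

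A pan-leukocyte gene and the transcription factors Irf8 and Spi1 were higher too. Ptprc, the CD45 phosphatase of all leukocytes, read 9.29, 9.87, 9.25 and 9.52, differences of 0.58 and 0.27. Irf8, a transcription factor of dendritic cells and monocytes, read 9.66, 10.20, 9.72 and 10.28, differences of 0.54 and 0.56. Spi1, which encodes PU.1, the factor needed for the myeloid lineage, read 6.0, 6.56, 6.21 and 6.81, differences of 0.56 and 0.59. Irf8 and Spi1 thus differed by similar amounts in both backgrounds, unlike most macrophage markers.

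Dendritic cell genes were dim on these arrays. Flt3, the growth factor receptor of dendritic cells, read 6.18, 6.69, 6.25 and 6.73, differences of 0.51 and 0.48. Clec10a, a lectin for galactose and N-acetylgalactosamine found on dendritic cells and macrophages, read 4.77, 6.50, 5.18 and 6.0, which is 3.32-fold and 1.76-fold higher. Both floxed values were under the floor, so these folds are not well fixed, and with values under 6 raised to 6 Clec10a differed by 0.50 and 0.00. Xcr1, the chemokine receptor of cross-presenting dendritic cells, read 4.21 to 4.56, under the floor in every array. The 2 measured genes were higher in both deleted arrays, and the cross-presenting subset could not be read here.

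S100a8, S100a9 and Arg1 are linked to inflammatory myeloid cells. S100a8, a subunit of the calcium-binding protein calprotectin, read 4.73, 6.44, 4.89 and 6.44, which is 3.27-fold and 2.93-fold higher in the deleted arrays. Both floxed values were under the floor here too, and raised to 6 they gave differences of 0.44 and 0.44. S100a9, the other subunit, read 3.71, 4.55, 3.68 and 3.95, all under the floor. Of 8 neutrophil markers with a probe set 7 lay under the floor in every array, and the 8th, Cd177, read 10.47, 11.25, 9.85 and 11.35. The summed signal of the 8 markers was 1600, 2625, 1112 and 2814, most of it from Cd177, and its part in the S100a8 difference was not tested. Csf3r, the receptor for granulocyte colony-stimulating factor, read 5.06 to 5.44.

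Arg1 followed no other member. It encodes arginase 1, which breaks down arginine in the urea cycle of hepatocytes and is also induced in macrophages. It read 6.47 in the Vhl floxed array, 4.66 in the Vhl deleted array, 4.24 in the Vhl floxed Apc Min array and 5.63 in the Vhl deleted Apc Min array. The Vhl difference was -1.82 without and 1.39 with the Min allele. Among the 10 hepatocyte markers, 10 were likewise lower in the Vhl deleted than in the Vhl floxed array, where 6328 of 11871 genes were lower. Alb read 11.53, 7.24, 6.10 and 7.08. Markers under the floor numbered 0, 6, 7 and 6 in the 4 arrays. Those that passed it through the Vhl floxed array alone favour this direction. With the Min allele 6 of the 10 were higher in the deleted array, with a median of 0.18, where 46.5% of all genes were higher. Most of the values compared there lay under the floor. The part of liver RNA in the Arg1 values was not tested.

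The Vhl difference of most members was smaller with the Min allele. It was the lower of the pair, taking signs into account, for 27 of 31 members, against 51.7% of all genes, and the median change was -0.37 for members and -0.01 for all genes. Among the 24 members at or above the floor in all arrays the change was negative in 22, against 52% of such genes, with a median of -0.34. No member was lower by 1 or more, as 0.295% of all genes were, and only Arg1 was higher by 1 or more, against 1.27%. Fcgr3 had differences of 1.00 and 0.26, Mrc1 of 0.82 and 0.18, and C1qb of 1.22 and 0.52. With 1 array a genotype this contrast has no error of its own.

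The control array matters for these sizes. The Vhl floxed array was the lowest of the 4 for 26 of 31 members, against 23.3% of all genes. The highest was the Vhl deleted array for 18 members, against 22.1%, and the Vhl deleted Apc Min array for 11, against 22.4%. The Vhl floxed Apc Min array was the lowest for 3 members, Laptm5, Ptprc and Arg1, against 24.6%. Set against the Vhl floxed Apc Min array in place of its own control, the Vhl deleted array was higher for 30 of 31 members with a median of 0.49. At least 2-fold apart were then 3 members, in place of 7: Itgam, Clec10a and S100a8, at 1.56, 1.32 and 1.55. The Vhl deleted Apc Min array set against the Vhl floxed array put 28 of 31 members higher, their median being 0.71, and 5 at least 2-fold apart, in place of 3. For these swapped controls the shares of all genes were not counted, so the member counts have no background beside them.

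**Figure D3:**
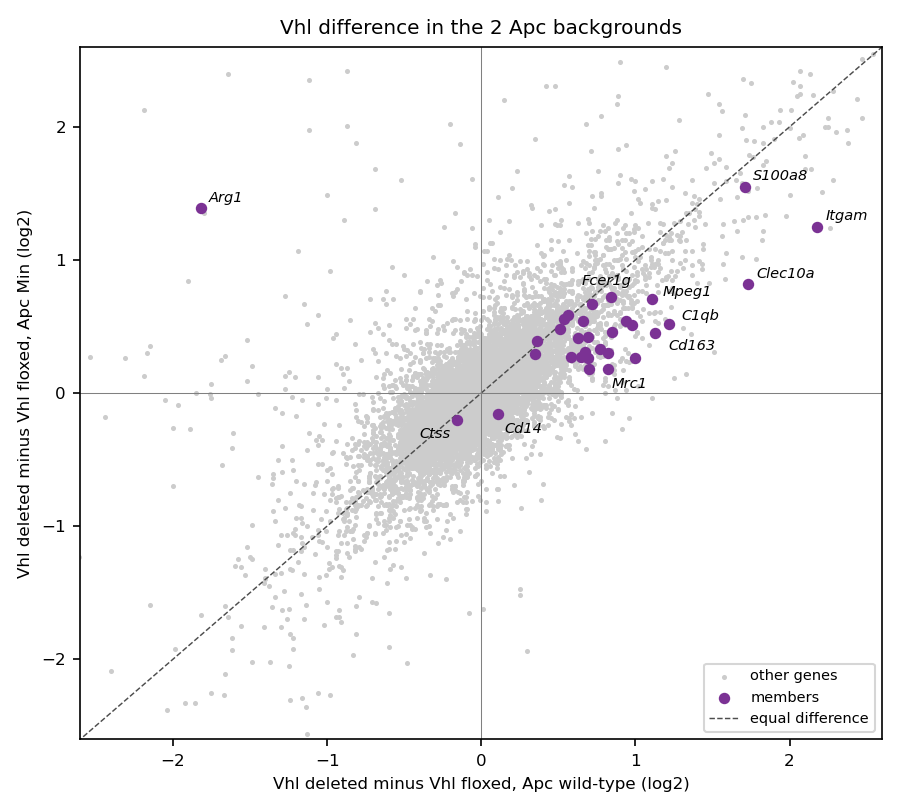
Vhl deleted minus Vhl floxed on the log2 scale, without the Min allele (x axis) and with it (y axis), for the members that reach the floor (purple) and all other genes (grey); genes beyond 2.6 in either direction are not drawn. Most members lie to the right of 0 and below the dashed line of equal difference, S100a8 is near the line at 1.71 and 1.55, and Arg1 is the only member in the upper left, at -1.82 and 1.39.

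The Min allele by itself went with small differences in these genes. With floxed Vhl 28 of 31 members were higher in the Apc Min array, with a median of 0.21, against 50.8% of all genes and a median of 0.00. Of these, 4 were at least 1.5-fold higher, against 1.05% of all genes: Cd68 at 0.66, Mrc1 at 0.64, Itgam at 0.62 and C1qb at 0.60. For Itgam both values lay under the floor, and raised to 6 they did not differ. The other C1qb probe sets gave -0.11 and 0.22. Of the 24 members at or above the floor in all arrays, 2 were at least 1.5-fold higher, against 87 of 10958 such genes. Arg1, at -2.23, was the only member at least 1.5-fold lower, against 2.36% of all genes, and the only one at least 2-fold apart, where 0.901% of all genes were lower and 0.118% higher. This comparison and the Vhl comparison without the Min allele share the Vhl floxed array.

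With deleted Vhl 12 members were higher and 18 lower in the Apc Min array, S100a8 was equal at 6.44, and the median was -0.06, against 50.5% higher and a median of 0.00 among all genes. Clec10a at -0.50 and Cd163 at -0.42 were the lowest members. Arg1 at 0.98 was the highest and the only one at least 1.5-fold higher, against 0.724% of all genes. No member was at least 2-fold apart, where 0.202% of all genes were higher and 0.118% lower.

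Ligands that recruit and feed these cells did not differ as a group. Of 17 such genes listed 16 had a probe set and 9 reached the floor, with medians of 0.16 and 0.04 for Vhl deletion. Csf1, the macrophage growth factor, read 7.15, 7.31, 7.43 and 7.47, and Il34, the second ligand of Csf1r, 5.87, 5.68, 6.40 and 5.95. Ccl8, a monocyte-attracting chemokine, read 7.15, 9.42, 7.41 and 9.68, the largest difference of the list at 2.28 and 2.27. Ccl6, another CC chemokine, read 12.43, 10.86, 12.11 and 10.86, differences of -1.58 and -1.25. Single chemokines thus differed in opposite directions in both backgrounds, while the growth factors Csf1 and Il34 differed by 0.16 and 0.04 and by -0.19 and -0.45. Ccl20, the ligand of Ccr6, differed by -1.06 and -0.53, and Ccl9 by 0.63 and 1.28.

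Receptors of these ligands were higher or nearly equal. All 7 that reached the floor, of 10 listed and 9 with a probe set, read above their controls in both backgrounds, where 46.6% and 46.5% of all genes were higher, with medians of 0.61 and 0.38. Among them Ccr6 differed by only 0.05 and 0.01, Csf2ra by 0.03 and 0.06, and Cxcr4 by 0.08 without and 0.61 with the Min allele. Ccr2, the receptor by which monocytes leave the blood, read 5.56, 7.33, 5.74 and 6.75, differences of 1.78 and 1.01. Ccr1 read 6.43, 7.06, 6.72 and 7.07. Ccr2 was the only receptor of the list at least 2-fold higher, and its floxed values lay under the floor.

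Transcription factors of the lineage other than members had medians of 0.21 and 0.01 over 10 genes at the floor, of 16 listed. Id2, an inhibitor of DNA binding needed for some dendritic cells and also made by epithelium, was the only one at least 2-fold apart, at 1.44 and 1.12. Irf4 read 5.17 to 5.74, under the floor, and Irf5 differed by 0.04 and -0.10.

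Of 44 further macrophage and dendritic cell genes 34 reached the floor. Without the Min allele 27 were higher and 7 lower, where 46.6% of all genes were higher, and the median was 0.57. At least 2-fold higher were 4 of the 34, against 2.27% of all genes. With the Min allele 26 were higher and 8 lower, where 46.5% of all genes were higher, and the median was 0.28. At least 2-fold higher was then 1 of the 34, against 2.82% of all genes. The 4 were Clec7a, the beta-glucan receptor dectin-1, at 1.40, the membrane proteins Ms4a6d and Ms4a6c at 1.29 and 1.27, and Tlr2, a receptor for bacterial lipoproteins, at 1.24. Tlr2 was also the 1 with the Min allele, at 1.73. Ms4a6d lay under the floor in both floxed arrays, at 5.28 and 5.35, so its fold is not well fixed. Clec7a lay just under it in the Vhl floxed array, at 5.97. Ms4a6c differed by 0.56 as the mean over its probe sets, and Ms4a7 by 0.79 and 0.41. At least 1.5-fold lower were 2 genes in each background, against 5.08% and 5.15% of all genes. They were Cd83 at -0.72 and Gas6 at -0.64 without the Min allele, and Mertk at -0.70 and Gas6 at -0.69 with it. The median of this longer list thus lay in the same direction as that of the members and was likewise smaller with the Min allele, while single genes went the other way.

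Other cell types of the mucosa differed between the same arrays. All 9 endothelial markers were higher with Vhl deletion in both backgrounds, where 46.6% and 46.5% of all genes were higher. Their medians were 1.18 and 0.81, and their summed signal was 1359, 3230, 1431 and 3073. Pecam1 differed by 0.87 and 0.46 and Cdh5 by 1.14 and 0.81. In each floxed array 3 of the 9 lay under the floor: Cdh5, at 5.46 and 5.79, Tek and Tie1. These 3 passed the floor through the deleted arrays alone, so their differences are not well fixed. Endothelial cells can also express Mrc1 and Fcgr2b, and their part in those values was not tested. Fibroblast markers had medians of 0.38 and 0.18, and epithelial markers 0.04 and 0.12. Smooth muscle markers had medians of -0.62 and -0.47, with 7 of 7 lower in both backgrounds, where 6328 and 6348 of 11871 genes were lower. The part of these cell types in the member differences was not tested.

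**Figure D4:**
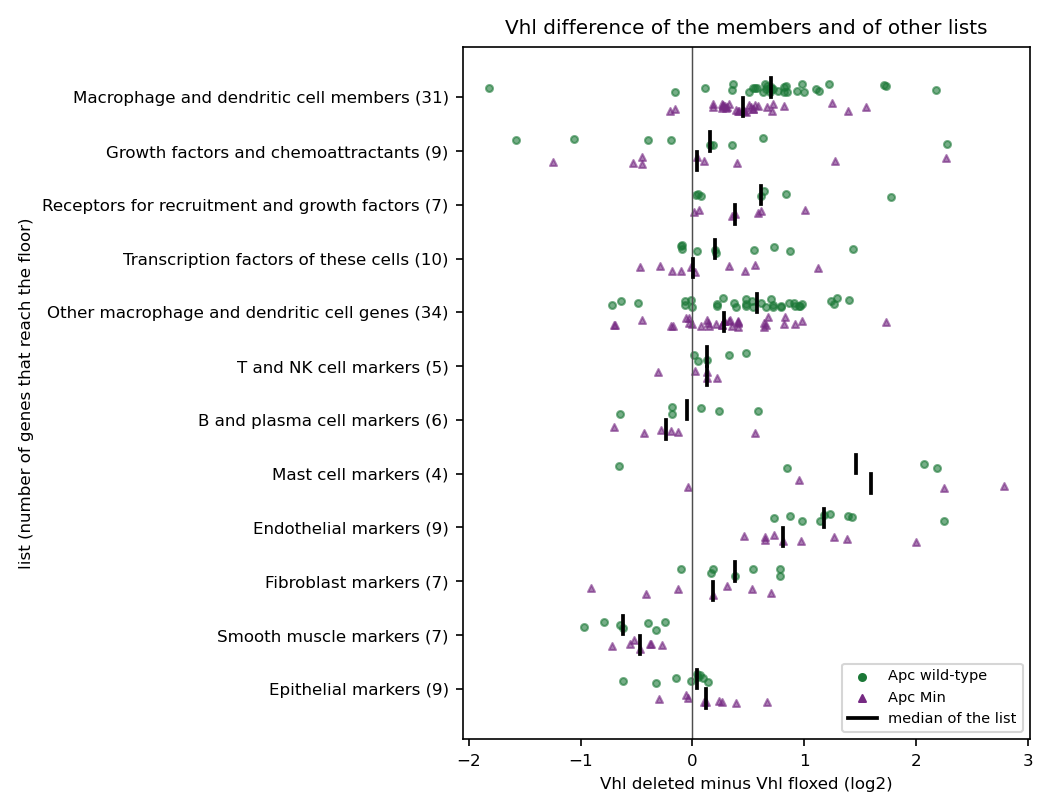
Vhl deleted minus Vhl floxed on the log2 scale (x axis) for the members and for other lists (rows, with the number of genes that reach the floor). Green circles are genes without and purple triangles genes with the Min allele, and black bars are list medians. The members' medians of 0.70 and 0.45 lie between those of the T and NK cell list, at 0.13 and 0.13, and of the endothelial list, at 1.18 and 0.81.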

How the data were processed

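Colon mucosa RNA of 4 genotypes was measured on 1 array each. The authors deposited log2 values for 45101 probe sets, for which the submitters' processing notes name affy and RMA without a version. RMA brings arrays to one distribution, so a shift of all transcripts would not be seen, and it compresses dim signals. Array medians were 6.05 to 6.07.

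Of the probe sets 34958 had a single gene symbol, 932 several and 9211 none in the platform annotation, and only the first were used. Entrez identifiers of all 36 measured members were in the RefSeq table of GRCm38.p6, with 0 symbols changed. The highest-mean probe set stood for a gene, with a floor of 6 in at least 1 array. Differences are 1 array minus another, counted at 2-fold and 1.5-fold, with no test. Counting was tested on simulated data. The members and lists were chosen with earlier results of these data known. All members were named. Of other lists, the genes named were those at least 2-fold apart in a Vhl comparison, markers that define a cell type, and a few chosen after their values were seen. Alternatives were other floors, raised dim values, other probe set rules, cyclic loess and the other control array. Tools were limma 3.58.1 in R 4.3.3, and pandas 2.3.3, numpy 2.4.6 and matplotlib 3.10.9 in Python 3.11.15.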

Additional observations from a re-analysis of the deposited data

Results flagged for a closer look

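Arg1 was the only member that differed in opposite directions, by at least 1.5-fold each way, under the same contrast in the 2 backgrounds. Vhl deletion went with -1.82 without and 1.39 with the Min allele. The Min allele went with -2.23 with floxed Vhl and 0.98 with deleted Vhl. Each value compares 1 array with 1 array, 3 of the 4 Arg1 values lay under the floor of 6, and the difference between backgrounds was not tested.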

How the results depend on the processing

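The direction of the member median for Vhl deletion was kept in both backgrounds under every alternative run, at 0.49 to 0.73 without and 0.37 to 0.71 with the Min allele, where 0.71 came with the Vhl floxed array as control. The median change between backgrounds was -0.28 to -0.37 over the settings that kept the controls. Counts of members at least 2-fold apart moved more. For the floor of 7, the raised values and the other control array, shares of all genes were not counted. Itgam, Clec10a, S100a8 and Arg1 drop out when values under 6 are raised to 6, by construction. Without and with the Min allele, Vhl deletion gave 7 and 3 such members. A floor of 7 gave 3 and 0, raising values under 6 to 6 gave 3 and 0, a 1.5-fold threshold gave 23 and 8, and the other control array gave 3 and 5. For the Min allele with floxed and deleted Vhl the counts were 1 and 0. With floxed Vhl a floor of 7 and raised values each gave 0. A 1.5-fold threshold gave 5 and 1, and the other control array 3 and 5. With deleted Vhl the median was -0.13 at a floor of 7. With the other control array the Min medians were -0.49 and 0.71 in place of 0.21 and -0.06. Those comparisons also differ in Vhl status by construction. Arg1 then read 0.42 and -0.84 for Vhl deletion, Alb 1.15 and Apoa2 0.10 without the Min allele, all opposite to their values against the first control. No paired analysis was possible because each genotype has 1 array, and for the same reason no array could be left out as a replicate. The number of arrays limits the precision.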

Other observations

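Some members are neighbours in the genome and could be set side by side. C1qb, C1qc and C1qa follow each other with 0 protein-coding genes between them in the RefSeq table, and their Vhl differences were 1.22, 0.77 and 0.94 without and 0.52, 0.33 and 0.54 with the Min allele. Itgam and Itgax are also adjacent, with differences of 2.18 and 0.63 without and 1.25 and 0.41 with the Min allele. S100a8 and S100a9 are adjacent, and S100a9 stayed under the floor while S100a8 passed it in both deleted arrays. Fcgr2b and Fcgr3 have 1 protein-coding gene between them.

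Probe sets other than the chosen one give a second reading of the same RNA, which is no replicate. Above the floor there were 14 of them, for 8 members. All 14 had the direction of the chosen probe set in the Vhl comparison without the Min allele, and all 14 with it. In the comparisons of the Min allele 10 and 8 of 14 had that direction.

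Of 7 B and plasma cell markers with a probe set 6 reached the floor, and their medians for Vhl deletion were -0.05 and -0.23, below 0 in both backgrounds where the member medians were above it. Single genes of the list went both ways: Pou2af1 differed by 0.59 and 0.56, Blnk by -0.65 and -0.70, Cd79a by 0.24 and -0.28 and Cd79b by 0.08 and -0.19. Of 9 mast cell markers 4 reached the floor, with medians of 1.46 and 1.60. Mcpt1 read 4.82, 7.01, 4.19 and 6.98 and Mcpt2 4.89, 6.96, 4.74 and 6.99, so both passed the floor through the deleted arrays alone and their differences have no firm size. Cma1 differed by 0.85 and 0.95. Kit, which is above the floor in every array, differed by -0.66 and -0.04.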
